A study of Homo sapiens with 15 samples.

Results

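The respiratory chain and ATP synthase were followed as mRNA in human pancreatic ductal adenocarcinoma lines given siRNA. The members are the 13 rows of the mitochondrially encoded mRNAs and the 91 rows whose symbols begin like those of the nuclear encoded subunits of complexes I to V, 104 of the 25503 rows of the table. Of the 91, 85 are protein-coding rows and 6 are non-coding neighbours that carry the symbol of a subunit gene. The 85 are called subunits here for short, though a few, such as ATP5IF1 and COX7A2L, are not. Complexes were assigned by symbol, so NDUFA4 and NDUFA4L2 count in complex I. The neighbours reached at most 0.643 FPKM (fragments per kilobase, scaled to the library's reads, a level per length) and are not described further. The rule for the members uses symbols and no measured value, but the set was chosen with earlier results of these data known.

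Complexes I to IV pass electrons from NADH and succinate to oxygen and, apart from complex II, pump protons out of the mitochondrial matrix. Complex V, the ATP synthase, lets the protons return and makes ATP. The mitochondrial genome encodes the core membrane subunits of complexes I, III, IV and V and none of complex II, and every other subunit is encoded in the nucleus and imported. Mitochondrial mRNAs are cut out of long transcripts that cover nearly a whole strand, the heavy-strand transcript giving all of them except ND6, which comes from the light strand.

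RNA sequencing covered 15 libraries in 5 groups of 3. AsPC-1 cells received an siRNA against B4GALT5 (siB4GALT5), an siRNA against B3GNT3 (siB3GNT3) or a control siRNA (siNC). Capan-1 cells received siB3GNT3 or siNC. Each target had a single siRNA group per line, so effects of an siRNA and of losing its target cannot be told apart. Both are established cell lines. In every comparison between them, including the interaction, line and any handling of the line cannot be told apart. The B4GALT5 enzyme adds galactose to glycolipids in the Golgi, and the B3GNT3 enzyme extends sugar chains with N-acetylglucosamine. The labels do not state whether replicates were separate cultures, so p-values measure only the spread between libraries, which may be technical. In RNA from whole cultures, fewer cells with a transcript and less of it per cell cannot be told apart.

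The targets were low in their own groups with a single exception. B4GALT5 was 8.70, 8.49 and 8.03 FPKM with siB4GALT5, against 35.5 to 38.7 FPKM in AsPC-1 siNC. B3GNT3 was 2.53 and 2.504 FPKM in AsPC-1 siB3GNT3 replicates 1 and 2 and 24.2 FPKM in the library labelled replicate 3, against 22.5 to 23.8 FPKM in siNC. That library was set apart because its target was not reduced, and the counts of siB3GNT3 in AsPC-1 are given without it and with it. The group then holds 2 libraries that were kept because their target was low. B3GNT3 was 1.32 to 1.84 FPKM in Capan-1 siB3GNT3, against 13.2 to 13.7 FPKM in Capan-1 siNC. Each of the 7 epithelial markers listed reached 1 FPKM in some library, with a summed level of 1643 to 5060 FPKM per library. At 1 FPKM or more in at least 3 libraries of a fit, 5 of the 7 passed in AsPC-1 and all 7 in Capan-1. The 3 acinar markers stayed under 1 FPKM everywhere. The endothelial list summed to 0.0181 to 1.65 FPKM, with only PECAM1 reaching 1 FPKM. The fibroblast list summed to 57.4 to 92.6 FPKM, through COL1A1, LUM and PDGFRB, and the leukocyte list to 38.9 to 213 FPKM, through CD68 and LYZ.

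Mitochondrially encoded mRNAs took a smaller share of all FPKM in both AsPC-1 knockdowns than in the control. They made up 19.5, 18.1 and 19.0% of summed FPKM with siB4GALT5 and 20.1 and 19.7% with siB3GNT3, against 24.8, 24.8 and 23.8% with siNC. The library labelled siB3GNT3 replicate 3 had 24.3%, inside the control range, and the other knockdown libraries all lay below it. In Capan-1 the share was 13.6, 14.4 and 13.7% with siB3GNT3 and 14.3, 14.8 and 14.5% with siNC, so the groups overlapped. The 85 nuclear encoded subunits took 2.00, 2.06 and 2.01% with siB4GALT5 and 2.23 and 2.16% with siB3GNT3 in AsPC-1, against 2.33, 2.35 and 2.43% with siNC. In Capan-1 they took 1.76 to 1.91% with siB3GNT3 and 1.88 to 1.96% with siNC.

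**Figure D1:**
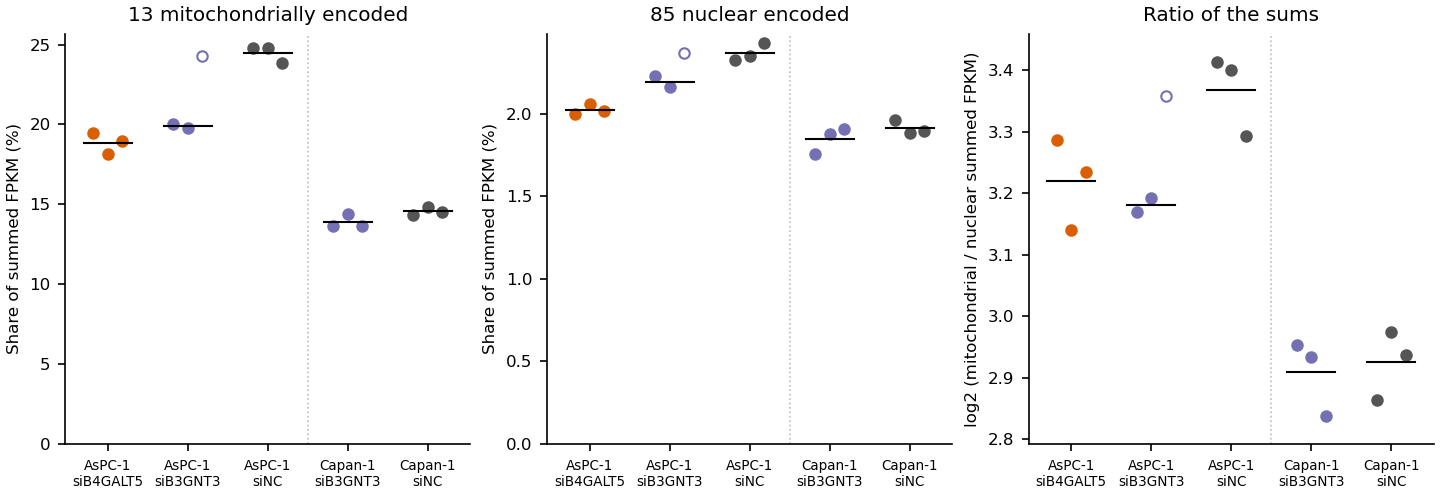
Share of summed FPKM taken by the 13 mitochondrially encoded mRNAs and by the 85 nuclear encoded subunits, and the log2 ratio of the 2 sums, in each library (points; bar, group mean; open circle, the library labelled AsPC-1 siB3GNT3 replicate 3, left out of the mean). Both shares are lower in the AsPC-1 knockdowns than in AsPC-1 siNC, and all Capan-1 libraries have a lower ratio than the AsPC-1 libraries.

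How the ratio between the origins moved depended on the summary used. The log2 ratio of the mitochondrial to the nuclear sum was 3.29, 3.14 and 3.24 with siB4GALT5 and 3.17 and 3.19 with siB3GNT3, against 3.41, 3.40 and 3.29 with siNC. The highest siB4GALT5 library lay just under the lowest siNC library, and the siB3GNT3 libraries lay below all 3 controls. The difference from siNC was -0.15 for siB4GALT5 (pooled SD 0.070) and -0.19 for siB3GNT3 (pooled SD 0.048). With the library labelled replicate 3 the siB3GNT3 difference was -0.13. Sums are set mainly by the most abundant genes. The log2 ratio of the median mitochondrial to the median nuclear member went the other way with siB4GALT5, at 6.53, 6.38 and 6.32, against 6.25, 6.21 and 6.11 with siNC, a difference of 0.22 (pooled SD 0.090) without overlap. With siB3GNT3 it was 6.14 and 6.25, overlapping the controls. Within complexes the ratio of sums was lower with siB4GALT5 by 0.13 in complex I, 0.19 in complex IV and 0.24 in complex V, and higher by 0.15 in complex III (pooled SD 0.066 to 0.096). In Capan-1 the ratio was 2.95, 2.93 and 2.84 with siB3GNT3 and 2.86, 2.98 and 2.94 with siNC, a difference of -0.02 (pooled SD 0.059). Between the control libraries the ratio of sums was higher in AsPC-1 by 0.44 (pooled SD 0.062), and the ratio of medians by 0.10 (pooled SD 0.068). In complex III the ratio of sums was lower in AsPC-1, at 2.07 against 2.33 in Capan-1. These differences carry no p-value, since they are scores over the members.

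With siB4GALT5 in AsPC-1, 12 of the 13 mitochondrially encoded mRNAs were called lower than with siNC and none higher (limma, adjusted p under 0.05). Over all 10775 genes tested, 23% were called lower and 35.2% higher. The median log2 fold change of the 13 was -0.51, against 0.06 for all genes tested. Of the genes called, 60.5% were higher, 50.6% under median-ratio scaling and 70.9% with a common sum over all genes. Changes are on the scale log2(FPKM + 1), and reads of mitochondrial copies in the nuclear genome cannot be told apart from these genes in a table of levels. With the library labelled siB3GNT3 replicate 3 in the estimate of spread, 10 of the 13 were called lower, where 15.1% of all genes were called lower and 24.1% higher.

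ND6 fell furthest. ND6, a small membrane subunit of complex I and the only mRNA of the light strand (mitochondrial genome 14149 to 14673, minus strand, GRCh38), was 264, 235 and 308 FPKM with siB4GALT5, against 582, 532 and 480 FPKM with siNC. The groups did not overlap, and the log2 fold change was -0.98 (SE 0.12, adjusted p = 9.33e-05). The sources used here do not say whether reads were counted by strand, and without strand ND6 reads and those of the opposite heavy-strand transcript cannot be told apart. As a percentage of the mean of the 12 heavy-strand genes, ND6 was 3.73 to 4.82 with siB4GALT5, against 5.53 to 6.503 with siNC.

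Subunits of complexes IV and V encoded next to each other fell by similar amounts. COX1, which holds the site where oxygen is reduced, was 13153, 12552 and 11974 FPKM with siB4GALT5, against 17915, 18054 and 17182 FPKM with siNC. Every knockdown library lay below every control (log2 fold change -0.50, SE 0.045, adjusted p = 1.79e-05). COX2, which takes electrons from cytochrome c, changed by -0.51 and COX3 by -0.61. ATP6, the subunit that lines the proton path of the ATP synthase, was 6873, 6199 and 6613 FPKM with siB4GALT5, against 9832, 9973 and 9691 FPKM with siNC. Its log2 fold change was -0.58 (SE 0.042, adjusted p = 4.84e-06). ATP8, whose reading frame overlaps that of ATP6, changed by -0.67 with a wider error (SE 0.13). Fragments in such overlaps, which ND4L and ND4 also have, can be assigned to either gene.

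The complex I genes at the start of the heavy-strand order and CYTB at its end fell less. ND1, a membrane subunit next to the quinone site, was 5403, 5285 and 4626 FPKM with siB4GALT5, against 5882, 5891 and 5708 FPKM with siNC. Its log2 fold change was -0.19 (SE 0.056, adjusted p = 0.0148), and the call was lost without siNC replicate 1 (adjusted p = 0.0506), without siNC replicate 2 (0.0507) and with the library labelled siB3GNT3 replicate 3 in the fit (0.0701). With a common sum over all genes ND1 changed by -0.11 (adjusted p = 0.101), and with no filter on low genes its adjusted p was 0.206. ND2, a proton-pumping subunit, changed by -0.26 (SE 0.037), a call lost with no filter (adjusted p = 0.0532). CYTB, the heme-bearing membrane subunit of complex III, changed by -0.18 (SE 0.046, adjusted p = 0.00746), a call lost with that library (0.13), with no filter (0.16) and with a common sum over all genes (0.0699), where the change was -0.09. ND4 and ND4L, toward the other end, changed by -0.51 and -0.55, and ND5 by -0.32. ND3, a small complex I subunit, lies between COX3 and ND4L and changed least, so small changes were not confined to the ends of the order. ND3 was 3640, 3763 and 3616 FPKM with siB4GALT5, against 4051, 3929 and 3735 FPKM with siNC. It did not pass the test (log2 fold change -0.09, SE 0.045, adjusted p = 0.125), except under median-ratio scaling (-0.16, adjusted p = 0.0157).

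**Figure D2:**
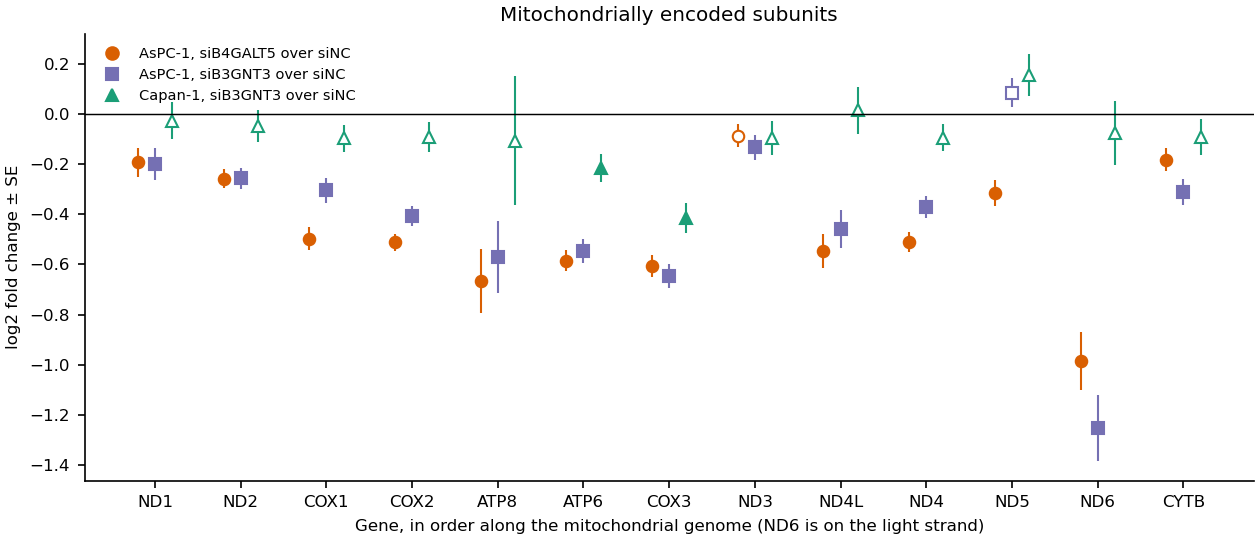
log2 fold change ± SE (limma) of each mitochondrially encoded mRNA, in order along the mitochondrial genome, for siB4GALT5 over siNC and siB3GNT3 over siNC in AsPC-1 (replicates 1 and 2 of siB3GNT3) and siB3GNT3 over siNC in Capan-1. Filled symbols have an adjusted p under 0.05. ND6 is lowest in both AsPC-1 knockdowns, ND5 is the only open symbol for siB3GNT3 in AsPC-1, and COX3 is the lowest gene in Capan-1.

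With siB3GNT3 in AsPC-1, 12 of the 13 mitochondrial mRNAs were again called lower and none higher, where 20.4% of all genes tested were lower and 32.5% higher. The comparison shares its siNC libraries with that of siB4GALT5, so the 2 sets of values are not independent. The median of the 13 was -0.37, against 0.07 for all genes, and of the genes called 61.5% were higher (51% under median-ratio scaling, 72.2% with a common sum). With the library labelled replicate 3 included, no gene at all was called by limma (0% of 10804 in either direction). At an unadjusted p under 0.05, 9 of the 13 were then lower and none higher, beside 1137 lower and 1874 higher genes in all, and the median of the 13 was -0.25.

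ND6 was 250 and 197 FPKM in siB3GNT3 replicates 1 and 2 and 478 FPKM in the library labelled replicate 3, against 480 to 582 FPKM with siNC. The first pair lay far below the controls, and the doubted library next to the lowest of them. The log2 fold change was -1.25 (SE 0.13, adjusted p = 5.54e-05), and adjusted p = 0.168 with the doubted library. COX3 was 9866 and 9268 FPKM with siB3GNT3 (15137 FPKM in the doubted library), against 14551, 15616 and 14732 FPKM with siNC, and changed by -0.65 on the log2 scale (SE 0.049, adjusted p = 8.87e-06). ATP6 changed by -0.55, ND4L by -0.46, COX2 by -0.41, ND4 by -0.37, COX1 and CYTB by -0.31 each, ND2 by -0.26 and ND1 by -0.20. ATP8 (-0.57, adjusted p = 0.0081) was no longer called without siB3GNT3 replicate 2 (0.0873), and ND1 was no longer called without either of the 2 knockdown libraries, without siNC replicate 1 or 2, with a common sum (0.125) or with no intensity trend (0.0551). With no filter ND1, ND2, ND3, ND4, COX1, COX2 and ATP8 were no longer called (adjusted p = 0.0555 to 0.33). ND3 changed by -0.13 (adjusted p = 0.04999), at the edge of the threshold, and was no longer called without siB3GNT3 replicate 2 (0.353), siNC replicate 1 (0.161), siNC replicate 2 (0.12) or siB4GALT5 replicate 1 (0.0595), or with a common sum (0.453).

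ND5 was the mitochondrial mRNA on which the 2 siRNAs differed most. It encodes the proton-pumping subunit at the tip of complex I's membrane arm, and was 2615, 2326 and 2345 FPKM with siB4GALT5 and 3182 and 3220 FPKM with siB3GNT3. The siB3GNT3 libraries also lay above the 3 siNC libraries, at 2934 to 3153 FPKM, without passing the test (log2 fold change 0.08, SE 0.058, adjusted p = 0.254). With every library rescaled to a common sum over all genes, ND5 was called higher with siB3GNT3 in AsPC-1. Directly compared, siB4GALT5 was lower than siB3GNT3 in ND5 by 0.40 on the log2 scale (SE 0.058, adjusted p = 0.000767), in COX1 by 0.19 and in ND4 by 0.14. These were the only 3 of 13 called between the siRNAs, where 17.4% of all genes were lower with siB4GALT5 and 17.8% higher. The ND4 call was lost with no filter (adjusted p = 0.572), no intensity trend (0.118), the replicate block (0.0716) and without siB4GALT5 replicate 2, either siB3GNT3 library or any siNC library (0.0556 to 0.198). The COX1 call was lost with no filter (0.527), no trend (0.0555), the block (0.0524) and without siB3GNT3 replicate 2 (0.139). ND5 and COX1 were called with the library labelled replicate 3 included and ND4 was not (0.0825), where 7.61% of all genes were lower and 8.27% higher.

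Capan-1 cells given siB3GNT3 showed smaller differences from their control. COX3 and ATP6 were called lower and no mitochondrial mRNA higher, where 14.2% of all 11493 genes tested were lower and 18.7% higher. The median of the 13 was -0.09, against 0.02 for all genes. COX3 was 4929, 5295 and 4726 FPKM with siB3GNT3, against 6625, 6520 and 6765 FPKM with siNC, without overlap (log2 fold change -0.41, SE 0.060, adjusted p = 0.00202). ATP6 changed by -0.22 (SE 0.055, adjusted p = 0.0192), a call that ended when any siNC replicate was left out (adjusted p = 0.0729 to 0.0802). With no filter neither COX3 (0.131) nor ATP6 (0.359) was called. ND6 was 237, 317 and 227 FPKM with siB3GNT3 and 262, 301 and 254 FPKM with siNC, overlapping groups. ATP8 varied most between libraries, with 1308, 2213 and 965 FPKM for siB3GNT3 and 1351, 1688 and 1534 FPKM for siNC.

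The siB3GNT3 response differed between the lines for 8 of the 13 mitochondrial mRNAs, all lower in AsPC-1 relative to Capan-1, in the interaction of both lines. Of all 12236 genes tested there, 13.8% were lower and 19% higher, so 57.8% of the calls were higher (45.3% under median-ratio scaling). ND6 had the largest difference, -1.17 (SE 0.20, adjusted p = 0.000743), and ND4L, ATP6, COX2, ND4, COX3, ND2 and COX1 followed at -0.47 to -0.21. The last 3 calls were weak. COX3, ND2 and COX1 lost them at a pseudocount of 0.1 (adjusted p = 0.0697, 0.0803 and 0.091), with a common sum over all genes (0.0663, 0.0826 and 0.079) and with no intensity trend (0.0695, 0.0945 and 0.0824). ND2 kept its call only when AsPC-1 siB4GALT5 replicate 2 or 3 or Capan-1 siB3GNT3 replicate 1 was the library left out. COX1 lost its call without AsPC-1 siB3GNT3 replicate 1, AsPC-1 siNC replicate 1 or 2, Capan-1 siB3GNT3 replicate 3 or any Capan-1 siNC library, and COX3 without AsPC-1 siB3GNT3 replicate 2, AsPC-1 siNC replicate 2, Capan-1 siB3GNT3 replicate 2 or Capan-1 siNC replicate 1 or 2. ND4L lost its call without AsPC-1 siB3GNT3 replicate 2 (0.0853). With no filter only ND6 was called. None of the 13 was called with the library labelled AsPC-1 siB3GNT3 replicate 3 included, where 4.43% of all genes were lower and 5.4% higher.

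Most nuclear encoded subunits were also lower with siB4GALT5 in AsPC-1. Of the 85, 79 had at least 1 FPKM in every library, 3 in some libraries and 3 in none. The test covered 80 in AsPC-1. Of these 59 were called lower and 1 higher, against 23% of all genes lower and 35.2% higher, with a median log2 fold change of -0.33 against 0.06 for all genes. Complex III had 9 of 10 lower, complex IV 10 of 11, complex V 15 of 17, complex II 2 of 4 and complex I 23 of 38 with 1 higher. The medians ran from -0.23 in complex I to -0.41 in complex V. With the library labelled siB3GNT3 replicate 3 in the spread, 47 were lower and 1 higher, where 15.1% of all genes were lower and 24.1% higher. Under median-ratio scaling the counts were 66 lower and 1 higher, and with a common sum over all genes 49 lower and 4 higher. Both scalings also moved the calls over all genes, as given above, so these shifts are not particular to the members.

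SDHA, the flavin-bearing subunit of complex II that oxidises succinate, fell most. The gene lies on the plus strand of chromosome 5 at 218241 to 256700 (GRCh38). SDHA was 38.3, 36.7 and 45.4 FPKM with siB4GALT5 and 59.8 and 59.7 FPKM with siB3GNT3, against 85.8, 92.4 and 94.5 FPKM with siNC. The 3 groups were ordered without overlap, and the library labelled siB3GNT3 replicate 3, at 89.0 FPKM, lay among the controls. The log2 fold change was -1.16 with siB4GALT5 (SE 0.077, adjusted p = 2.94e-06) and -0.60 with siB3GNT3 (SE 0.087, adjusted p = 0.00041; 0.168 with the doubted library). Between the siRNAs siB4GALT5 was lower by 0.57 (adjusted p = 0.00104). Of its partners, SDHD, a membrane anchor, changed by -0.49 and -0.40 in the same order. SDHB, the iron-sulfur subunit, was 115, 121 and 121 FPKM with siB4GALT5, against 102, 118 and 114 FPKM with siNC, and was not called, and neither was the anchor SDHC.

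UQCR10, a small subunit of complex III (chromosome 22, 29767369 to 29770413, plus strand), was 56.7, 55.8 and 39.2 FPKM with siB4GALT5, against 101.9, 100.01 and 98.2 FPKM with siNC. The log2 fold change was -0.99 (SE 0.12, adjusted p = 0.000102). With siB3GNT3 it was 90.7 and 90.8 FPKM and did not pass the test (-0.14, adjusted p = 0.4). Between the siRNAs it was lower with siB4GALT5 by 0.85 (adjusted p = 0.0012). UQCR11, UQCRC2 and UQCRQ of the same complex changed by -0.46, -0.37 and -0.40 with siB4GALT5. UQCRH, the hinge protein of complex III, changed by -0.35. It has a near-identical copy, UQCRHL, so its value is uncertain.

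Complex V showed the lowest median. ATP5MC1, ATP5MC2 and ATP5MC3 encode the same mature membrane ring subunit from separate genes. ATP5MC1 was 82.7, 77.95 and 59.97 FPKM with siB4GALT5, against 121, 113 and 130 FPKM with siNC (log2 fold change -0.73, SE 0.11, adjusted p = 0.000438). ATP5MC3 changed by -0.51 and ATP5MC2 by -0.17. ATP5MC2 was not called with a common sum over all genes (adjusted p = 0.133). ATP5F1A and ATP5F1B, the subunits that form the catalytic head, changed by -0.47 and -0.34. ATP5IF1, the inhibitor protein that blocks ATP hydrolysis, was 25.1, 27.1 and 28.2 FPKM with siB4GALT5 and 40.5 and 39.9 FPKM with siB3GNT3, against 35.3, 36.1 and 40.6 FPKM with siNC. It was lower with siB4GALT5 than with siNC by 0.46 and than with siB3GNT3 by 0.57 (adjusted p = 0.000315 and 0.000458). ATP5MF, subunit f, named after its values were seen, was uneven, with 30.6, 42.8 and 87.6 FPKM in the siB4GALT5 libraries and 94.7 to 100.3 FPKM with siNC (log2 fold change -0.99, SE 0.29, adjusted p = 0.0161).

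In complex IV the changes were even. COX7B, COX6C, COX7A2, COX8A, COX6B1, COX4I1 and COX6A1 changed by -0.50 to -0.28 with siB4GALT5, each called lower. COX7A2L, which helps to join complexes III and IV, was 38.0, 40.7 and 30.3 FPKM with siB4GALT5 and 38.2 to 39.4 FPKM with siNC, and was not called. Isoforms of restricted tissues were low: COX6B2 stayed at or under 1.32 FPKM, COX8C at or under 0.189 FPKM, and COX7B2 was listed at 0 in 14 of the 15 libraries. NDUFA4, named for complex I and also known as a complex IV subunit, changed by -0.44, and its hypoxia-linked relative NDUFA4L2 was 1.14 to 1.31 FPKM with siB4GALT5 and 1.21 to 1.85 FPKM with siNC, not called.

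Complex I had the least negative median. NDUFA2, an accessory subunit of the NADH-oxidising module, changed by -0.59 and NDUFA12 by -0.67, while NDUFV1, the subunit that takes electrons from NADH, changed by -0.27 and NDUFV2, its iron-sulfur partner, was not called.

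**Figure D3:**
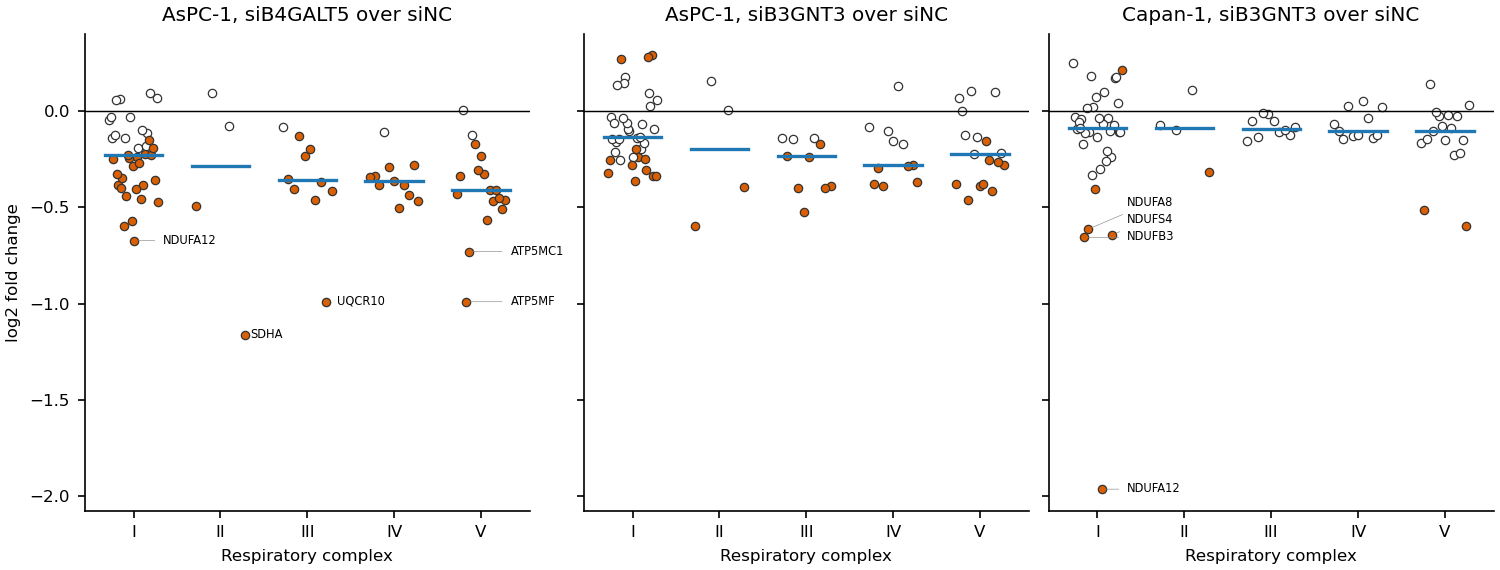
log2 fold change of the tested nuclear encoded subunits reported here, by respiratory complex, for siB4GALT5 over siNC and siB3GNT3 over siNC in AsPC-1 (replicates 1 and 2 of siB3GNT3) and siB3GNT3 over siNC in Capan-1. Filled points have an adjusted p under 0.05 (limma), bars are medians over all tested subunits, and names mark called genes with a log2 fold change of at least 0.6 in size. Most points lie below 0 with siB4GALT5, and NDUFA12 is the lowest point in Capan-1.

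The start regions of these genes are known for sites of NRF1, of ETS factors such as GABP and of YY1. In the 250 bases before the start, RefSeq sequences (GRCh38.p14) matched 68 of the 85 nuclear members. The NRF1 core GCGCATGCG was present on either strand in 9 of the 68 (13.2%), against 2.29% of 18273 genes of the table and 1.78% of all 27305 promoters. The ETS core CCGGAAG was present in 17 (25%), against 11.4% of the table's genes, and the YY1 core AAGATGGC in 1 (1.47%), against 1.48%. These are unlike sets, since most members were expressed and the genes compared include many that were not. Shares among expressed genes only were not computed. All 9 members with the NRF1 core were among the 47 with a sequence that were called lower with siB4GALT5, while 0 of the 17 tested but not called lower held it. For the ETS core the counts were 12 of 47 and 5 of 17. Since 47 were called lower against 17 that were not, most of any 9 members would lie among the 47. The contrast carries no test, and whether NRF1 has a part was not tested. A match describes letters in this window and is not a site, and no match says nothing of the factor. SDHA, UQCR10, ATP5MC1 and NDUFA12 held none of the 3. The windows of 4 members called lower are shown because they hold the NRF1 core, with matches in capitals, read on the strand of the gene; in ATP5F1C and SDHD the NRF1 core overlaps itself on the other strand.
SDHD, chr11:112086743-112086822, plus strand: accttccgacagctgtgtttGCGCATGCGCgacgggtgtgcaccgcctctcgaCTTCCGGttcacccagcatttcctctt
ATP5F1C, chr10:7788135-7788176, plus strand: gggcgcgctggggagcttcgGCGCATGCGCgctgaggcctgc
NDUFS6, chr5:1801341-1801389, plus strand: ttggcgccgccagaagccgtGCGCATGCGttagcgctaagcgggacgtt
ATP5PF, chr21:25735058-25735194, minus strand: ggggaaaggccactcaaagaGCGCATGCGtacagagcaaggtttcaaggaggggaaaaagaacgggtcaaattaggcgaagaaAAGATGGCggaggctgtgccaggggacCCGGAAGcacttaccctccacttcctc
The capitals mark the NRF1 core in all 4, then the ETS core on the other strand in SDHD, and the YY1 core and the ETS core in ATP5PF.

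With siB3GNT3 in AsPC-1, 34 of the 80 nuclear subunits were called lower and 4 higher, against 20.4% of all genes lower and 32.5% higher, with a median of -0.17 against 0.07 for all genes. Median-ratio scaling gave 53 lower and 2 higher and a common sum over all genes gave 28 lower and 9 higher, scalings that also moved the calls over all genes. The library labelled replicate 3 left none called (14 lower and 2 higher at an unadjusted p under 0.05). Complex III had 7 of 10 lower, complex V 9 of 17, complex IV 6 of 11, complex II 2 of 4 and complex I 10 of 38, the last near the share of all genes. The higher calls were in complex I and included the quinone-module iron-sulfur subunit NDUFS8 (0.28, adjusted p = 0.000862), and, named after their values were seen, NDUFS4 (0.29, adjusted p = 0.0411) and NDUFA7 (0.27, adjusted p = 0.0445). ATP5F1B was 696 and 676 FPKM with siB3GNT3 (881 FPKM in the doubted library), against 887, 886 and 922 FPKM with siNC (log2 fold change -0.39, SE 0.043, adjusted p = 7.58e-05). ATP5F1C, UQCR11, UQCRQ, COX7C and NDUFB9 changed by -0.40 to -0.34. ATP5MC1 (-0.46, adjusted p = 0.0117) was no longer called without siB3GNT3 replicate 2 (0.0977). COX7A2 (-0.28, adjusted p = 0.0238) was no longer called without siB3GNT3 replicate 2 (0.251), siNC replicate 1 (0.0713) or siNC replicate 2 (0.0524).

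Directly compared in AsPC-1, siB4GALT5 was lower than siB3GNT3 in 24 of 80 nuclear subunits and higher in 1, against 17.4% of all genes lower and 17.8% higher, with a median of -0.11 against -0.0044 for all genes. Beside SDHA, UQCR10 and ATP5IF1, the called genes included NDUFA12 (-0.43), NDUFS7, an iron-sulfur subunit of the quinone module (-0.34), NDUFV1 (-0.30), ATP5PO, which ties the catalytic head to the stator (-0.25), COX5B (-0.21) and COX6A1 (-0.20). The higher call was ATP5F1C, at 116, 119 and 119 FPKM with siB4GALT5 and 107 and 106 FPKM with siB3GNT3 (0.14, adjusted p = 0.0463). The count of lower calls was 10 without siB3GNT3 replicate 1. It was 17 with the library labelled replicate 3, where 7.61% of all genes were lower, and ATP5F1C was no longer called. COX5B was also not called with that library (adjusted p = 0.0588), with no filter (0.118), with no trend (0.0773), or without siB4GALT5 replicate 1 or 2, siB3GNT3 replicate 1 or any siNC library (0.0641 to 0.347). ATP5PO was not called without siB3GNT3 replicate 1 (0.0979), and COX6A1 without siB3GNT3 replicate 2.

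**Figure D4:**
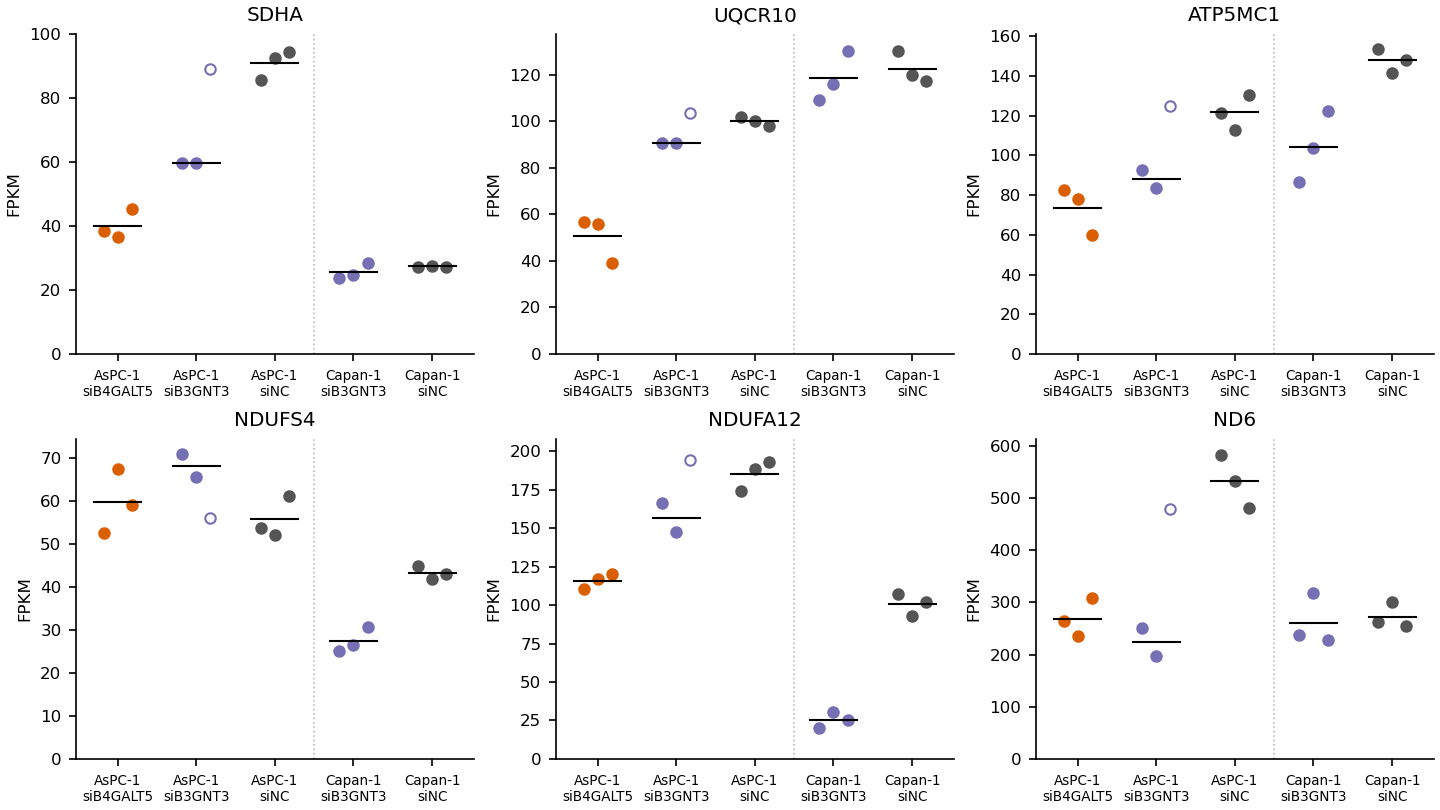
FPKM of SDHA, UQCR10, ATP5MC1, NDUFS4, NDUFA12 and ND6 in each library (points; bar, group mean; open circle, the library labelled AsPC-1 siB3GNT3 replicate 3, left out of the mean). The open circle lies closer to AsPC-1 siNC than to the other siB3GNT3 libraries in each panel, and NDUFA12 in Capan-1 siB3GNT3 is at 20.4 to 30.3 FPKM.

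In Capan-1, 8 of 79 nuclear subunits were called lower with siB3GNT3 and 2 higher, with a median of -0.09 against 0.02 for all genes. Both shares were below those of all genes, of which 14.2% were lower and 18.7% higher. The lower count was 28 without siB3GNT3 replicate 3, and 3, 5 and 4 without siNC replicates 1, 2 and 3. NDUFA12, an accessory subunit of complex I (chromosome 12, 94897055 to 95003770, minus strand), stood apart. It was 20.4, 30.3 and 25.4 FPKM with siB3GNT3, against 107, 93.0 and 102 FPKM with siNC, far outside the control range (log2 fold change -1.96, SE 0.13, adjusted p = 9.82e-05). In AsPC-1 it was 166 and 147 FPKM with siB3GNT3 (194 FPKM in the doubted library), against 174, 188 and 193 FPKM with siNC (-0.24, adjusted p = 0.0151). The response was thus less negative in AsPC-1, by 1.72 (SE 0.16, adjusted p = 8.31e-06).

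NDUFS4, an accessory subunit near the NADH-oxidising module, was 25.2, 26.6 and 30.7 FPKM with siB3GNT3 in Capan-1, against 45.0, 41.9 and 43.0 FPKM with siNC (-0.64, SE 0.082, adjusted p = 0.00122). The lines differed in this response by 0.93 (adjusted p = 0.000289). ATP5MC1 was 86.7, 104 and 123 FPKM in Capan-1 siB3GNT3 libraries, against 154, 142 and 148 FPKM with siNC (-0.51, adjusted p = 0.0118; 0.0521 without siNC replicate 1). ATP5F1A was 39.5, 50.0 and 61.5 FPKM, against 74.3, 74.8 and 77.2 FPKM with siNC (-0.60, adjusted p = 0.0132; 0.0514 without siNC replicate 3). In both genes siB3GNT3 replicate 3 was the knockdown library closest to the controls. SDHC (-0.32, adjusted p = 0.042) was no longer called without any of the siNC replicates or either of the first 2 knockdown libraries (adjusted p = 0.102 to 0.127). Other calls, named after their values were seen, were NDUFB3 (-0.66), NDUFA8 (-0.61), NDUFC2 (-0.41) and, among the higher, NDUFB10 (0.22).

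In the interaction 12 of the 80 nuclear subunits responded more negatively in AsPC-1 than in Capan-1 and 5 less so. The first count is near the 13.8% of all genes called lower there and the second is below the 19% called higher, and the median was -0.07 against 0.04 for all genes. The counts were 22 and 5 under median-ratio scaling and 8 and 8 with a common sum, scalings that shift all genes and not members alone. SDHD (-0.51), SDHA (-0.50), ATP5F1B (-0.42), UQCR11 (-0.38), ATP5PD (-0.35) and UQCRQ (-0.35) were among the 12, and NDUFA12 and NDUFS4 among the 5. ATP5PD passed narrowly (adjusted p = 0.0497). It was not called at a pseudocount of 0.1 (0.0543), with no filter (0.112), with a common sum (0.0854), with no trend (0.0629) or without most single libraries (0.0528 to 0.175), the exceptions being AsPC-1 siB4GALT5 replicate 3, Capan-1 siB3GNT3 replicate 3 and Capan-1 siNC replicate 2. UQCRQ was not called without AsPC-1 siB3GNT3 replicate 2 (0.0897). With the library labelled AsPC-1 siB3GNT3 replicate 3 included, 3 nuclear subunits were called, where 4.43% of all genes were lower and 5.4% higher. They were NDUFA12 (1.83), NDUFS4 (0.84) and NDUFB10 (-0.27), the last named after its values were seen.

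The control libraries of the lines differed in both origins, where line and handling cannot be told apart. All 13 mitochondrial mRNAs were higher in AsPC-1 siNC than in Capan-1 siNC, where 34.5% of all genes were higher and 43.6% lower, with a median of 0.96 against -0.09 for all genes. The differences ran from 0.34 for CYTB and 0.46 for ND5 to 1.11 for ND2 and 1.17 for COX3. Of the 80 nuclear subunits, 48 were higher in AsPC-1 and 15 lower, with a median of 0.30. With a common sum over all genes, which moved the median of all genes to -0.23, the counts were 38 and 25. Higher calls outnumbered lower ones in complexes I (25 and 5), III (8 and 1) and IV (8 and 1), while complex V had 5 higher and 7 lower.

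CYC1, the cytochrome c1 of complex III, had the largest difference. CYC1 had 249, 258 and 258 FPKM in the AsPC-1 controls, against 50.6, 49.8 and 48.0 FPKM in Capan-1 siNC, widely separated groups (log2 fold change 2.34, SE 0.052, adjusted p = 2.7e-14). With siB4GALT5 and siB3GNT3 it changed by -0.13 and -0.17 in AsPC-1. NDUFB9 (1.74), SDHA (1.69), COX6C (1.55), NDUFV2 (1.54), ATP5MC3 (1.54), NDUFB10 (1.37), NDUFV1 (1.37), ATP5F1D (1.22), ATP5F1B (1.21) and COX7A2L (1.18) followed. NDUFA4L2 was 1.21 to 1.85 FPKM in AsPC-1 siNC and at most 0.0804 FPKM in Capan-1 siNC. Within complex V the 2 main head subunits went opposite ways. ATP5F1B was 887, 886 and 922 FPKM in AsPC-1 siNC, against 400, 381 and 385 FPKM in Capan-1 siNC, and ATP5F1A, named here after its values were seen, was 40.5, 41.1 and 43.7 FPKM, against 74.3, 74.8 and 77.2 FPKM (-0.84, adjusted p = 8.03e-06). 

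**Figure D5:**
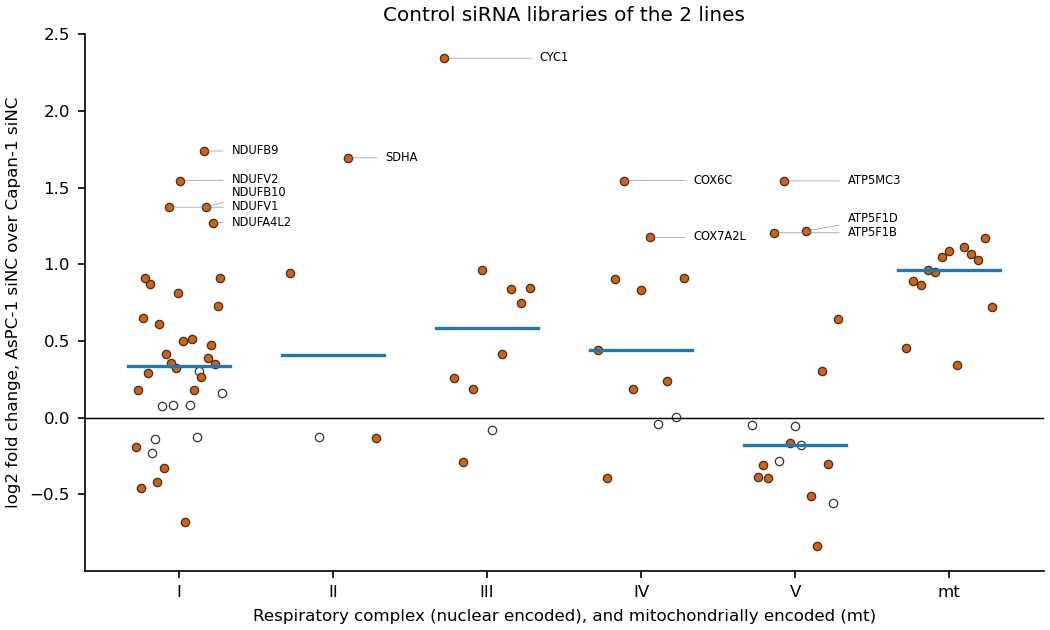
log2 fold change of AsPC-1 siNC over Capan-1 siNC for the nuclear encoded subunits reported here, by complex, and for the 13 mitochondrially encoded mRNAs (mt). Filled points have an adjusted p under 0.05 (limma), bars are medians over all tested subunits, and names mark the nuclear genes that are highest in AsPC-1. All mt points are above 0, and the median of complex V is the only one below 0.

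Levels per length differed widely between members. In AsPC-1 siNC and every other library COX1 was the most abundant gene of the table. ATP5F1B was the most abundant nuclear subunit with siB4GALT5, at a mean of 712 FPKM, and the nuclear median there was 59.7 FPKM, against 5105 FPKM for the mitochondrial genes. ATP5F1E, the epsilon subunit of the ATP synthase head, was listed at 0.355 to 1.36 FPKM although other head subunits were high, and it did not pass the filter for testing, which asks for at least 1 FPKM in at least 3 libraries of a fit. 

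Lists of genes that serve the chain held calls in both directions. Over all genes 35.2% were higher and 23% lower with siB4GALT5, 32.5% and 20.4% with siB3GNT3 in AsPC-1, and 18.7% and 14.2% with siB3GNT3 in Capan-1, and many of the list counts lie near or under these shares. Among factors of mitochondrial DNA transcription and maintenance, 2 of 17 tested were higher and 2 lower with siB4GALT5, 3 and 3 with siB3GNT3 in AsPC-1, and 1 and 2 with siB3GNT3 in Capan-1. TFAM, which packages mitochondrial DNA and starts its transcription, averaged 14.8 FPKM with siB4GALT5 and 6.25 FPKM with siB3GNT3 (replicates 1 and 2), against 17.6 FPKM with siNC in AsPC-1. It fell by 0.24 (SE 0.084, adjusted p = 0.0359) with siB4GALT5. With siB3GNT3 the fall was larger, -1.36 on the log2 scale (SE 0.094, adjusted p = 5.73e-06). In Capan-1 TFAM was 12.0 FPKM with siB3GNT3 and 15.04 FPKM with siNC and was not called. POLG, the mitochondrial DNA polymerase, rose by 0.60 with siB4GALT5 and by 0.49 and 0.20 with siB3GNT3 in AsPC-1 and Capan-1.

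In mitochondrial RNA processing and stability, of 22 tested, 4 were higher and 4 lower with siB4GALT5, 4 and 7 with siB3GNT3 in AsPC-1 and 2 and 5 in Capan-1. SLIRP, which with its partner LRPPRC stabilises mitochondrial mRNAs, changed by -0.36, -0.32 and -0.26 in these comparisons, called in each. GRSF1, a mitochondrial RNA granule protein, changed by -0.65 with siB3GNT3 in AsPC-1. Mitochondrial ribosomal proteins had 11 of 77 higher and 21 lower with siB4GALT5, the same counts with siB3GNT3 in AsPC-1, and 0 and 26 in Capan-1. Import factors had 7 of 29 higher and 7 lower, 4 and 7, and 0 and 10. In AsPC-1 the lower counts of both lists were near the shares of all genes, and in Capan-1 they were above. For siB3GNT3 in AsPC-1 the counts of all these lists are without the library labelled replicate 3, and with it no gene of any list was called. With siB4GALT5 that library in the spread left 9 of 77 ribosomal proteins lower, where 15.1% of all genes were lower.

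Assembly factors had 8 of 51 higher and 14 lower with siB4GALT5, 11 and 11 with siB3GNT3 in AsPC-1, and 3 and 14 of 52 in Capan-1, so that the lower counts were near the shares of all genes in AsPC-1. UQCC1, which assembles complex III, averaged 9.84 FPKM with siB4GALT5 and 25.5 FPKM with siB3GNT3, against 19.3 FPKM with siNC (-0.91 and 0.38). Electron carriers and enzymes of the citric acid cycle had 3 of 24 higher and 13 lower with each siRNA in AsPC-1, and 2 and 9 in Capan-1, lower counts above the shares of all genes. With siB4GALT5, 8 of 24 were lower with the library labelled siB3GNT3 replicate 3 in the spread, where 15.1% of all genes were lower. IDH2, mitochondrial isocitrate dehydrogenase, changed by -0.70 with siB4GALT5 and by -1.45 with siB3GNT3 in AsPC-1. Regulators of nuclear respiratory genes had 7 of 15 higher and 2 lower with siB4GALT5, 7 and 3 with siB3GNT3, and 3 and 0 in Capan-1.

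Interferon-stimulated genes were higher in every knockdown comparison with siNC, also in Capan-1, where few members of the respiratory chain were called. Of those tested, 30 of 30 were higher with siB4GALT5, 29 of 30 with siB3GNT3 in AsPC-1 and 34 of 35 with siB3GNT3 in Capan-1, with medians of 1.97, 1.46 and 1.00. Over all genes 35.2%, 32.5% and 18.7% were higher in the same order. With the library labelled replicate 3 included, 0 of 30 were called with siB3GNT3 in AsPC-1. IFIT1, a sensor of foreign RNA, averaged 51.4 FPKM with siB4GALT5 and 33.5 FPKM with siB3GNT3, against 7.98 FPKM with siNC in AsPC-1. Whether these genes have a part in the respiratory chain results was not tested.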

How the data were processed

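The authors deposited FPKM per gene and library, and these were used as deposited. Per the submitters' processing notes, Bowtie2, RSEM 1.3.1, DESeq2 1.4.5 and GRCh38 were used; the role of each, the annotation and strand handling are not given in the sources used here. FPKM carry no counts. Steps between low values gave relative depths of 0.949 to 1.03 of AsPC-1 siNC replicate 1, while absolute depth is unknown, so no counting interval is given. From the FPKM, log2(FPKM + 1) was fitted with limma 3.58.1 in R 4.3.3, using its trend option, for genes with at least 1 FPKM in at least 3 libraries of a fit, and p-values were adjusted over all genes by Benjamini-Hochberg, called under 0.05. The fits held 8 AsPC-1 libraries, 6 Capan-1 libraries, or all 14 for the interaction and the control libraries, leaving aside AsPC-1 siB3GNT3 replicate 3, whose target was not reduced. The pseudocount understates changes of low genes. The test was also run on simulated data. These used the spread of the AsPC-1 siNC libraries for every group, so they do not check groups with a wider spread, such as Capan-1 siB3GNT3.

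Genes named are both targets, the 13 mitochondrial mRNAs, up to 3 called members per complex and comparison by smallest p, members with a log2 change of at least 1, isoform sets and up to 3 genes per list by smallest p. Exceptions are stated. Members and lists were chosen with earlier results of these data known. Gene positions are from GENCODE 29, which matched 102 of the 104 rows, and promoters from RefSeq (Python 3.11.15, pandas 2.3.3). COX4I2, COX6A2 and COX7A1 are not analysed here, and some genes that entered the fits and counts are not reported here. Alternatives tried were the pseudocount, the filter, 3 scalings, no trend, a replicate block, other samples in the fit and each library left out.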

Additional observations from a re-analysis of the deposited data

Results flagged for a closer look

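The siB3GNT3 response differed between AsPC-1 and Capan-1 for 16 named members in the interaction of both lines (limma, 14 libraries, differences as AsPC-1 minus Capan-1 on the log2 scale). The list holds only called genes, and its nuclear members were named because they were called. Of all 12236 genes tested, 13.8% were lower and 19% higher, and of the 80 nuclear subunits 12 were lower and 5 higher. Among mitochondrially encoded mRNAs the difference was -1.17 for ND6 (adjusted p = 0.000743), -0.47 for ND4L (0.0129), -0.33 for ATP6 (0.00272), -0.32 for COX2 (0.00269), -0.28 for ND4 (0.00501), -0.23 for COX3 (0.0313), -0.21 for COX1 (0.0339) and -0.21 for ND2 (0.0475). Among nuclear encoded subunits it was -0.51 for SDHD (0.00276), -0.50 for SDHA (0.00667), -0.42 for ATP5F1B (0.000714), -0.38 for UQCR11 (0.00288), -0.35 for ATP5PD (0.0497) and -0.35 for UQCRQ (0.0148). It was positive for NDUFA12 at 1.72 (8.31e-06) and NDUFS4 at 0.93 (0.000289). The calls of ATP5PD, ND2, COX1 and COX3 were lost at a pseudocount of 0.1, with a common sum over all genes and with no intensity trend. With the library labelled AsPC-1 siB3GNT3 replicate 3 included, 0 mitochondrial and 3 nuclear members were called, where 4.43% of all genes were lower and 5.4% higher.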

How the results depend on the processing

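Counts of members called moved with several choices. Except where a cause is plain from the construction (fewer libraries), the cause was not tested. Scaling shifts all genes of a library, so the calls over all genes move with it. For siB3GNT3 in AsPC-1 the mitochondrial count of 12 was 5 with no filter and 0 with the library labelled replicate 3, and the nuclear count of 34 was 53 under median-ratio scaling and 0 with that library. In Capan-1 the mitochondrial count of 2 was 0 with no filter, 1 with a replicate block and 1 to 2 with single libraries left out. The nuclear count of 8 was 2 with no filter, 15 in a fit of all 14 libraries and 3 to 28 with single libraries left out. Between the siRNAs the mitochondrial count of 3 was 1 with no filter, 1 with no trend, 1 with a replicate block and 1 to 3 with libraries left out, and the nuclear count of 24 was 10 to 29. In the interaction the mitochondrial count of 8 was 5 at a pseudocount of 0.1, 1 with no filter, 5 with a common sum, 5 with no trend, 0 with the doubted library and 5 to 9 with libraries left out. The nuclear count of 17 was 27 under median-ratio scaling, 3 with the doubted library and 8 to 22 with libraries left out, the 8 without AsPC-1 siB3GNT3 replicate 2. The ratio difference of siB3GNT3 in AsPC-1 was -0.262 from means of logs and -0.128 with the doubted library. In Capan-1 it turned to 0.0241 from means of logs and ran from -0.0477 to 0.0183 with libraries left out. Between the control libraries it was 0.53 from means of logs. The ratio of medians, an alternative chosen after seeing the data, turned the difference to 0.224 for siB4GALT5 and 0.00987 for siB3GNT3 in AsPC-1 and gave 0.101 between the control libraries. For siB4GALT5 the counts stayed within 9 to 13 and 47 to 66.

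Correlations between same-numbered libraries were small, at 0.0323 to 0.0599 (siB4GALT5 with siNC), -0.0187 to 0.0443 (siB3GNT3 with siNC, AsPC-1) and -0.0362 to 0.0361 (Capan-1). Of 3 libraries each, 3, 2 and 0 correlated best with their own number, so whether the numbers pair the libraries is not settled. For siB3GNT3 in AsPC-1 deviations were taken from a mean that included the library labelled replicate 3, so this check cannot show or exclude pairing there. With the replicate block siB4GALT5 gave 12 mitochondrial and 58 nuclear members lower. Absolute depth is unknown, which leaves the counting error of low members unstated.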
